A study of Mus musculus with 2 samples.

Results

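Myc, Mycn, Ccnd2 and Ccnd3 are genes that drive the growth and division of B cell precursors, and the regions marked with H3K4me1 around them were examined in mouse pre-B cells. The members were all called regions overlapping any of 4 fixed windows of the mm9 genome, each around a gene: chromosome 15 from 61700000 to 63700000 for Myc and the gene-poor stretch downstream of it, chromosome 12 from 12850000 to 13050000 for Mycn, chromosome 6 from 127000000 to 127200000 for Ccnd2, and chromosome 17 from 47580000 to 47800000 for Ccnd3. The 4 windows held 69 of the 48130 regions in the file: 48 in the Myc window, 2 in the Mycn window, 8 in the Ccnd2 window and 11 in the Ccnd3 window. None of the 69 crossed a window edge.

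H3K4me1, histone H3 carrying 1 methyl group at lysine 4, was mapped by chromatin immunoprecipitation and sequencing (ChIP-seq) with the antibody Ab8895. The pre-B cells, bone marrow B cell precursors, came from C57BL/6 (B6) RAG1-/- mice, which cannot rearrange antigen receptor genes, carrying an already rearranged IgM transgene. Mice were 6 to 14 weeks old and of both sexes, but neither their number nor the promoter of the transgene is given in the labels. The study had 1 H3K4me1 library and 1 input library made without antibody, both from cells of this same genotype, so the controls carry the deletion and the transgene too. Since each group was a single library, no spread between replicates exists and no difference below has a test over samples. Per the file header, the H3K4me1 library had 50945360 tags in total. The number of input tags is not given there. A region was called where a 500-base peak reached 26 tags, beside 12.582 expected, neighbouring peaks were stitched, and the result stood at least 4-fold over input. Of 50845 stitched regions implied by the header's bookkeeping, 48130 (94.7%) were kept. This is the share of candidates that passed the filters and not a rate of regions per window. Counts of regions are set below beside the density of the whole file and stretches of the same length. The file gives no signal per region, so regions are described by position, length and spacing.

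MYC is a transcription factor of the basic helix-loop-helix leucine zipper family that pairs with MAX, binds E-box sequences and raises ribosome production and cell growth, and N-MYC, encoded by Mycn, is its close relative in early progenitors. Cyclins D2 and D3, encoded by Ccnd2 and Ccnd3, bind the kinases CDK4 and CDK6, which phosphorylate the retinoblastoma protein and release E2F factors so that cells enter S phase. In large pre-B cells, signals from the IL-7 receptor and the pre-B cell receptor feed into these genes, and cyclin D3 is known to be needed for pre-B cell expansion. H3K4me1 marks enhancers, both active and poised, and often the flanks of promoters in use. It does not measure transcription.

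The files name no genes and no gene annotation of mm9 was used, so regions are placed within windows and not on promoters, exons or introns. The order of genes was taken from RefSeq on another build, GRCm38.p6, whose coordinates were not used. In order of increasing coordinate, Myc is preceded there by the pseudogenes Gm18154 and Gm18788 and followed by the long noncoding RNA gene Pvt1 and the transcribed pseudogene Macroh2a3. Mycn stands between the pseudogene Rpl36-ps3 (with the noncoding gene Gm40271 before it) and the pseudogene Gm48201 (with the noncoding gene Gm35208 after it). Ccnd2 is preceded by Fgf23 and Tigar, the first a phosphate-regulating hormone and the second a regulator of glycolysis, and followed by 9330179D12Rik and Gm18995. Ccnd3 is preceded by AI661453 and Taf8, the latter encoding a subunit of the general transcription factor TFIID, and followed by Gm41590 and by Bysl, a ribosome assembly gene.

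The start regions of the transcription factor and cyclin genes are shown where the RefSeq table of promoters (GRCm38.p6, 250 bases before to 50 after each start) holds them. It matched 2 of the 4 genes, Mycn with 1 entry on the minus strand of chromosome 12 and Ccnd3 with 2 entries on the plus strand of chromosome 17; Myc and Ccnd2 had no entry. Each is written 5′ to 3′, with every match to either motif found, TTTGGCGC or GGGAA, in capitals.
Mycn: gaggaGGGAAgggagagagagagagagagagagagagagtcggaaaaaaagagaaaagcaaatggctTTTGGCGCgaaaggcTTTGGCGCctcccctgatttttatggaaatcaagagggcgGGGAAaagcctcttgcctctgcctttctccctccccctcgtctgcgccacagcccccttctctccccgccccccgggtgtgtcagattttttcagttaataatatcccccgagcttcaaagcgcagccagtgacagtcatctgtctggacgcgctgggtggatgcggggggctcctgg
Ccnd3, first entry: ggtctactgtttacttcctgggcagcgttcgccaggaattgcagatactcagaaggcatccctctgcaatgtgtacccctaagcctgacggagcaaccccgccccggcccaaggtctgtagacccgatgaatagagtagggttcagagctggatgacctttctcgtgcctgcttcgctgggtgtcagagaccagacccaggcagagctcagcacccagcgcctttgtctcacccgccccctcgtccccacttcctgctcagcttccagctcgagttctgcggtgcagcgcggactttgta
Ccnd3, second entry: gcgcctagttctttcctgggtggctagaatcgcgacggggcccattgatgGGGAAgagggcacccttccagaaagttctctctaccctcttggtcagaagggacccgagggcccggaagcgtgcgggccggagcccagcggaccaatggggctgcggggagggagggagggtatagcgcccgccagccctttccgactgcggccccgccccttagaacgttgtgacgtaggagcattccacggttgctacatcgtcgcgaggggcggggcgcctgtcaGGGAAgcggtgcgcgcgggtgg
The search covered both strands and 4 motifs: CACGTG (the E-box), TTCNNNGAA (a STAT site), TTTGGCGC (an E2F site) and GGGAA (the core of an Ikaros site). The Mycn promoter held TTTGGCGC at 2 places, with first bases at -183 and -168 from the start site, and the motif was found in 0.514% of the 32851 promoters in the table. It also held GGGAA at -245 and -128. The second Ccnd3 entry held GGGAA at -200 and 29, and the first held none of the 4 motifs. GGGAA was found in 62.7% of promoters, CACGTG in 7.15% and TTCNNNGAA in 8.30%, and neither of the last 2 was in the 3 entries shown. These matches describe the letters of the RefSeq sequence only.

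The Myc window carried a chain of mostly short H3K4me1 regions that ended in a dense group at its far end 1.63 Mb from the first region. Its 48 regions came to 24.0 per Mb (exact Poisson 95% interval 17.7 to 31.8, covering counting error only), beside 18.8 per Mb over the spans of the autosomes and chromosome X and 20.6 per Mb on chromosome 15. They covered 77.7 kb, or 3.89% of the window, beside 4.30% over all spans. The number of regions was thus 1.28 times that of the whole file per Mb (interval 0.942 to 1.69), and the covered share was 0.904 times it. The median length was 1272 bases (order-statistic interval 761 to 1946; 25th to 75th percentile 636 to 2243), beside 1497 bases (813 to 2694) over all regions. The intervals of the density ratio and of the median hold 1 and the file's median. Both intervals treat the 48 regions of a single library as independent although regions cluster, so they are too narrow.

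The windows' place in the genome was described by setting them beside non-overlapping stretches of the same length laid over the same spans. Of 1273 stretches as long as the Myc window, 34.0% held at least 48 regions and 42.4% had at least as many covered bases. The median stretch held 31 regions. The Myc window was thus above the middle of the genome by both measures without standing far from it.

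Both very short and broad regions of the Myc window were counted. Of its 48 regions, 10 (20.8%, exact binomial interval 10.5 to 35.0%) had the shortest length in the file, 501 bases, which is a single peak of the caller; over the whole file this share was 14.3%. Only 2 reached 5000 bases (4.17%, interval 0.509 to 14.3%), beside 8.92% of all regions. Both intervals hold the share of the whole file. The longest ran from 61999151 to 62005459 (6309 bases), and 5.85% of all regions in the file were at least as long. The next ran from 63487285 to 63492875 (5591 bases). The other regions named by the rule, which took the 5 longest, were 3169 bases long (61935676 to 61938844), 3154 (62654412 to 62657565) and 3042 (63478626 to 63481667). Among these 5, 2 lay in the first 400 kb of the window, 1 near its middle and 2 in the dense group at the far end.

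**Figure D1:**
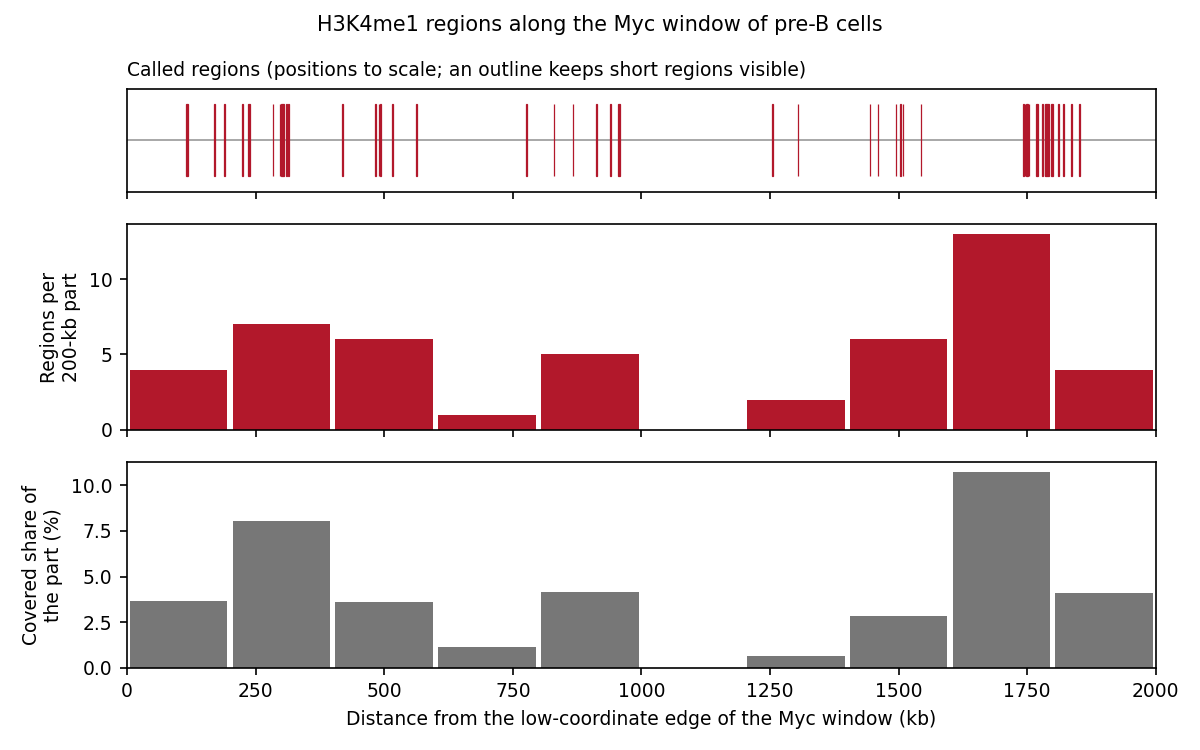
H3K4me1 regions along the Myc window: called regions at their positions (top), the number of regions in each 200-kb part (middle) and the percent of each part inside regions (bottom), against the distance in kb from the low-coordinate edge. The part from 1600 to 1800 kb held 13 regions and 10.7% covered bases, the most of the 10 parts, and the part from 1000 to 1200 kb held none.

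In consecutive parts of 200 kb from the low-coordinate end, the numbers of regions were 4, 7, 6, 1, 5, 0, 2, 6, 13 and 4. The ninth part, from 63300000 to 63499999, was the fullest of these by both measures, with 27.1% of the window's regions (Wilson interval 16.6 to 41.0%) and 10.7% of its bases covered. The second part, from 61900000 to 62099999, followed with 7 regions and 8.04% covered. The sixth part, from 62700000 to 62899999, held no region. Among 12802 stretches of 200 kb, 8.65% held at least 13 regions and 14.3% had at least as many covered bases as the ninth part. That part was picked as the fullest of 10, and its values depend on where the parts begin. With parts shifted by 100 kb, chosen after the positions were seen, the fullest ran from 63400000 to 63599999 and held 17 regions (35.4%) with 14.8% covered, and 3.40% of stretches held at least as many regions and 8.87% at least as many covered bases.

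Unmarked stretches over 100 kb, a division chosen after the positions were seen, parted the 48 regions into 6 groups. The first group, at the low-coordinate end, ran from 61815070 to 62013921 and held 11 regions in 198.9 kb, with a median length of 1621 bases and 11.7% of its span covered. It opened with a close pair, 61815070 to 61816496 (1427 bases) and 61817156 to 61818776 (1621 bases), with 659 unmarked bases between them. Pairs of this kind can flank a start site, but no start site was placed on mm9 here. Near its end lay the longest region of the window, in a domain of 4 regions from 61996773 to 62013921 that covered 10.5 of 17.1 kb; domains here are regions joined over gaps of up to 12500 bases.

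The groups in the middle of the window had 2.57 to 5.80% of their spans covered, less than the first (11.7%) and the sixth (26.6%). Beside the genome the middle was not uniformly thin. Its 200-kb parts, from the third to the eighth, held 6, 1, 5, 0, 2 and 6 regions, and the median 200-kb stretch held 1. The second group, 303.4 kb from the first region, held 6 regions with a median length of 780 bases, and the next, 659.9 kb from it, held 6 with a median of 1657 bases. After them came the longest unmarked stretch, 297.0 kb from 62657566 to 62954518. The fourth group had 2 regions of 639 and 638 bases. The fifth had 6 regions with a median of 570 bases, 3 of them at the shortest length, and its longest region was 2909 bases (63201975 to 63204883). These last 2 groups, 8 regions in all, held 1.64% and 7.33% of the window's covered bases.

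The sixth group, 1.63 Mb from the first region, was the most compact. From 63441951 to 63553378 it held 17 regions in 111.4 kb, 35.4% of the window's regions and 38.1% of its covered bases, at 152.6 regions per Mb of the group's span. The first group had 55.3 per Mb. Of the span of the sixth group, 26.6% was covered. Its median gap was 2.06 kb, beside 11.8 kb in the first group and 8.87 kb between neighbours over the whole file. Its regions were not unusually long, with a median of 1710 bases, and 3 had the shortest length. The division itself keeps gaps over 100 kb out of every group and makes each span begin and end on a region. The spacing and densities within groups are therefore partly set by it, and the file's median gap has no such limit.

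The sixth group fell into 4 domains. The domain with the most covered bases in the whole Myc window ran from 63468035 to 63521657 and joined 10 regions over 53.6 kb, of which 18.1 kb (33.8%) were covered. Of the 20379 domains in the file, 2.18% joined at least 10 regions and 5.81% had at least as many covered bases. These shares do not allow for the choice of this domain as the fullest of the 26 in the window. Before it lay a domain of 5 regions from 63441951 to 63453767, covering 7.69 of 11.8 kb, and after it came 2 single regions of 1710 and 2145 bases. The rule describes the downstream desert as holding Myc's blood enhancers, known as a cluster of elements that keep Myc expressed in blood stem and progenitor cells. Whether the sixth group coincides with that cluster was not tested.

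The marked bases of the Mycn window lay mostly in a single broad region. The window held 2 regions, 10.0 per Mb (exact Poisson interval 1.21 to 36.1), or 0.532 times the whole file (interval 0.0645 to 1.92). Both intervals are wide because they rest on 2 regions. The broad region ran from 12943772 to 12950191, near the middle of the window, and was 6420 bases long; 5.67% of all regions were at least as long. It made up 86.6% of the covered bases of the window. The other, from 12883980 to 12884974, was 995 bases long and lay 58.8 kb before it. Beyond the broad region, the remaining 99.8 kb of the window held nothing.

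Regions covered 3.71% of the Mycn window, or 7.42 kb, beside 3.79% of chromosome 12. This was close to the 3.89% of the Myc window, although the Myc window had 2.40 times as many regions per Mb (interval 0.629 to 20.4). Of 12802 stretches as long as the Mycn window, 47.8% held at least 2 regions and 32.0% had at least as many covered bases. The median stretch held 1 region and had 0.724% of its bases covered, so the window was above the middle by both measures. Stretches with no region at all made up 43.6%. Among the rest, 84.7% held at least 2 regions and 56.8% had at least as many covered bases. Without the 6420-base region, the covered share would have been 0.497%. Neither region was joined to another over gaps of up to 12500 bases.

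The Ccnd2 window held 3 long regions of H3K4me1, 1 near its centre and 2 at its high-coordinate edge. Its 8 regions came to 40 per Mb (exact Poisson interval 17.3 to 78.8), 2.13 times the whole file (interval 0.919 to 4.20), and 18.3 per Mb was the density of chromosome 6. They covered 25.4 kb, or 12.7% of the window, beside 3.98% of chromosome 6. Among 12802 stretches of that length, 20.7% held at least 8 regions and 11.3% had at least as many covered bases.

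All 8 regions of the Ccnd2 window are given, since the naming rule took every region of a window with up to 12. From the low-coordinate end they ran from 127029733 to 127030547 (815 bases), 127058434 to 127059479 (1046), 127092349 to 127093365 (1017), 127098231 to 127106121 (7891), 127111868 to 127113662 (1795), 127128073 to 127128573 (501), 127185380 to 127192748 (7369) and 127194945 to 127199874 (4930). The longest, near the centre, was matched or exceeded by 3.71% of all regions. It was joined with a region on either side into a domain of 3 regions from 127092349 to 127113662, of which 10.7 of 21.3 kb were covered. The longest unmarked stretch followed the 501-base region and spanned 56.8 kb, from 127128574 to 127185379. Of the 8 regions, 2 reached 5000 bases (25.0%, exact binomial interval 3.19 to 65.1%, beside 8.92% of all regions) and 1 had the shortest length.

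The last 2 regions of the Ccnd2 window belonged to a domain that ran on past the edge. It joined 5 regions from 127185380 to 127221212 and covered 22.5 of 35.8 kb (62.9%), the most of the 5 domains touching the window. Of all domains, 4.07% covered at least as many bases as this one, which was picked as the fullest. Its next region began 1.38 kb beyond the last region in the window. The window's covered share therefore depends on where the edge lies: it was 10.2% when the window was widened by 100 kb on each side. Which of the genes nearby this domain overlaps was not analysed here.

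Among the 4 windows taken whole, the Ccnd3 window was the most heavily marked by regions per Mb and by covered share. The window held a nearly unbroken block of H3K4me1. Its 11 regions came to 50 per Mb (exact Poisson interval 25.0 to 89.5), beside 24.9 per Mb on chromosome 17, and 2.66 times the whole file (interval 1.33 to 4.76). They covered 78.0 kb, or 35.4% of the window, beside 5.95% of chromosome 17 and 4.30% of all spans. Of 11636 stretches of the same length, 14.8% held at least 11 regions, but only 0.713% (83 stretches) had at least as many covered bases. The window thus stood higher among these stretches by covered bases than by number of regions.

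The block consisted of 3 long regions in a row. The one at the low-coordinate end ran from 47637643 to 47642127 (4485 bases), the next from 47642700 to 47655632 (12933 bases) and the last from 47656623 to 47697392 (40770 bases), with 572 and 990 unmarked bases between them. The last was the longest region of the window and ranked 11 by length in the whole file, and 1.10% of all regions were at least as long as the one before it. With 2 further regions of 501 bases, 47702324 to 47702824 and 47703715 to 47704215, they formed a domain from 47637643 to 47704215 that covered 59.2 of 66.6 kb (88.9%). By covered bases it ranked 97 of 20379 domains, and it was picked as the fullest of the 4 touching the window. The 40770-base region alone made up 52.3% of the covered bases of the window, and the covered share without it was 16.9%.

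Beyond a gap of 23.7 kb (47704216 to 47727942, the longest within the window), a second domain of 3 regions ran from 47727943 to 47750115 and covered 15.0 of 22.2 kb. Its regions were 2572 bases (47727943 to 47730514), 7991 bases (47731368 to 47739358) and 4407 bases (47745709 to 47750115) long. The remaining regions were small: 909 bases at 47622349 to 47623257, before the block, and a pair of 1318 and 1576 bases at 47764902 to 47766219 and 47766798 to 47768373, with 578 unmarked bases between them. The median of the 11 regions was 2572 bases, 3 reached 5000 bases (27.3%, exact binomial interval 6.02 to 61.0%, beside 8.92% of all regions), and 2 had the shortest length.

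**Figure D2:**
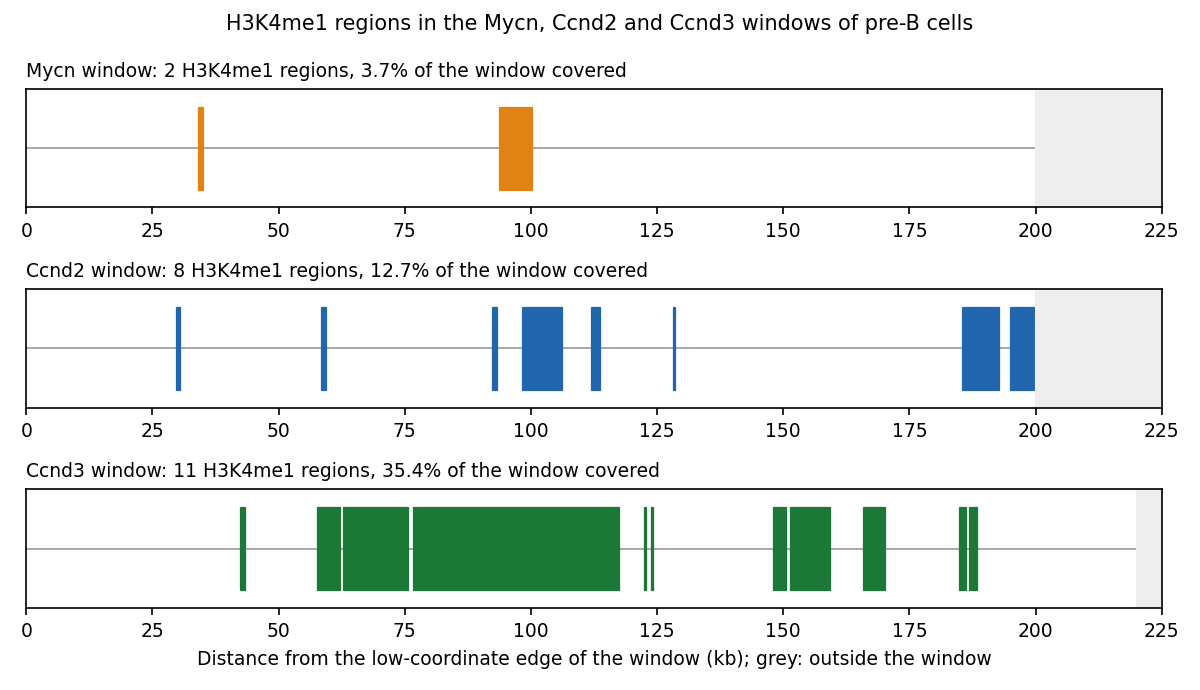
H3K4me1 regions (coloured boxes, to scale) in the Mycn, Ccnd2 and Ccnd3 windows against the distance in kb from the low-coordinate edge; grey marks what lies outside a window. The Mycn window shows 1 broad region of 6420 bases and 1 short one, the Ccnd2 window 8 regions with 2 at its far edge, and the Ccnd3 window a block of 3 adjoining regions that includes one of 40770 bases.

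Set beside each other, the windows of the D cyclins had more of their bases inside H3K4me1 regions than those of the MYC family. The covered share of the Ccnd3 window was 9.12 times that of the Myc window, 9.56 times that of the Mycn window and 2.79 times that of the Ccnd2 window. The Ccnd2 window had 3.26 times the covered share of the Myc window and 3.42 times that of the Mycn window. The windows differ in what they were drawn to include: the Myc window was 10 times as long as the Mycn and Ccnd2 windows and took in a desert. The fullest 200-kb part of the Myc window was covered to 10.7%, below the 12.7% of the Ccnd2 window, but to 14.8%, above it, when the parts were shifted by 100 kb. By number, this part held 13 regions, or 17 when shifted. Both numbers were above the 11 of the slightly longer Ccnd3 window and the 8 of the Ccnd2 window, but the part was picked as the fullest. By regions per Mb, the ratio between whole windows was smaller than by covered share in 4 of the 6 pairs. It was larger for Ccnd2 over Mycn and Myc over Mycn. Of the 6 pairs of windows, the counting interval of the ratio of densities left out 1 only for Ccnd3 over Mycn, at 5.0 (interval 1.09 to 46.4). It held 1 for Ccnd3 over Myc (2.08, 0.976 to 4.07), Ccnd2 over Mycn (4.0, 0.798 to 38.7), Myc over Mycn (above), Ccnd2 over Myc (1.67, 0.681 to 3.55) and Ccnd3 over Ccnd2 (1.25, 0.458 to 3.58). Against the whole file, the Ccnd3 window alone had an interval above 1. These intervals are not adjusted for the 10 ratios computed, and they treat regions as independent although regions cluster, so they are too narrow.

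**Figure D3:**
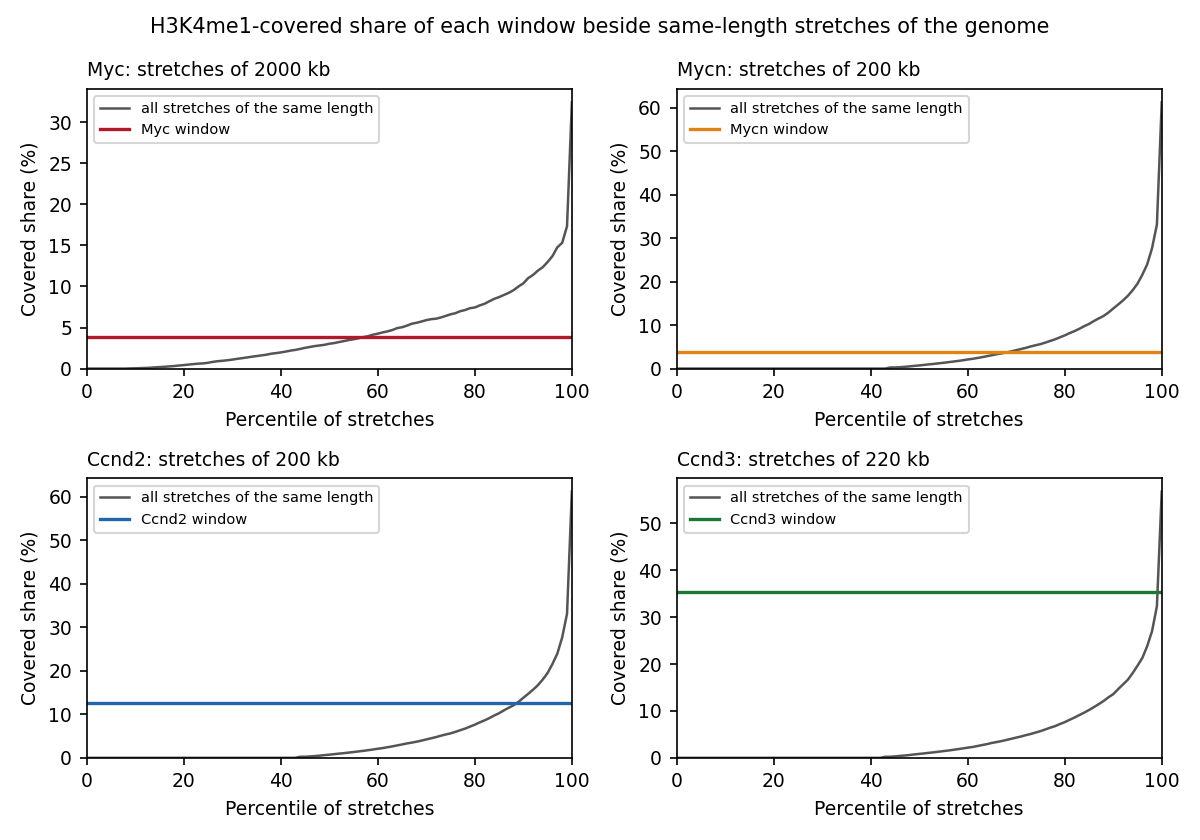
Percent of bases inside H3K4me1 regions in each window (coloured line) beside all non-overlapping stretches of the same length in the genome (grey curve, ordered by percentile). The Ccnd3 window, at 35.4%, crosses the curve at its top, where 0.713% of stretches have as much; the Mycn window, at 3.71%, and the Myc window, at 3.89%, cross it where 32.0% and 42.4% do.

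The spacing of neighbouring regions was also counted. Gaps of up to 2.5 kb between neighbouring regions made up 26.0% of all gaps in the file. In the Ccnd3 window they were 5 of 10 (50%, exact binomial interval 18.7 to 81.3%), and in the Myc window 13 of 47 (27.7%, 15.6 to 42.6%), 9 of them in the sixth group. The Ccnd2 window had 1 such gap of 7, of 2196 bases, and the only gap in the Mycn window was 58.8 kb. All 4 intervals hold the share of the whole file, the one for Mycn because it rests on a single gap.

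**Figure D4:**
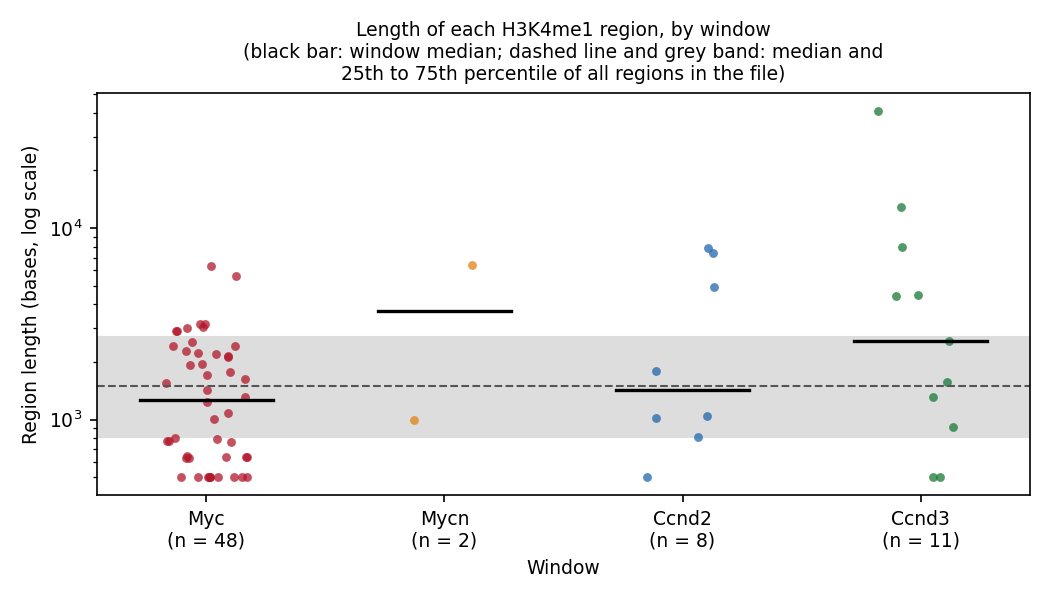
Length in bases (log scale) of each H3K4me1 region, by window, with the window's median (black bar) and the median and 25th to 75th percentile of all regions in the file (dashed line and grey band). The 48 Myc regions lie between 501 and 6309 bases, and the longest of the 11 Ccnd3 regions, at 40770 bases, stands above all other regions shown.

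Other genes of the pathway, among them Ccnd1, Cdk4, Cdk6, Cdkn1b, Rb1, E2f1, Max and Pim1, were listed for the same description but need gene positions on mm9, and were not analysed here.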

How the data were processed

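In all, 1 H3K4me1 ChIP-seq library and 1 input library were made from pre-B cells, and only called regions of the first were used. Each library came from 1 to 10 ng of DNA, 18 PCR cycles and a gel cut at 300 bp, and was read as 100-base single-end reads, per the labels' protocols. Bowtie 0.12.9, HOMER 4.7 and mm9 are named in the submitters' processing notes. Per the file headers, regions were called by HOMER's findPeaks in histone style from 500-base peaks, at a fragment length of 106 bases and a Poisson threshold of 1e-04 over input. The deposited score column is 1 in all 48130 rows and was not used, and neither were signal values per region, so regions could not be ranked by strength and region length also depends on the calling threshold and on depth.

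Starts were written counting from 1. A region was a member if it overlapped a window by any base. Covered bases were clipped to the window. Regions were joined into domains over gaps of up to 12500 bases. Same-length stretches were laid from the first to the last region of each autosome and chromosome X (2562 Mb). Intervals (95%) are exact Poisson, exact conditional binomial for ratios, and exact or Wilson binomial for shares. They rest on the regions or gaps of a single library, treated as independent although regions cluster, so they cover counting error only. Regions printed were the 5 longest of the Myc window, the 3 longest of the others and all regions of windows with up to 12, with the longest gap and fullest domain of each. Members, windows and lists were chosen with earlier results of these data known. Code was tested on simulated data. Python 3.11.15, numpy 2.4.6, pandas 2.3.3, scipy 1.17.1 and matplotlib 3.10.9 were used.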

Additional observations from a re-analysis of the deposited data

How the results depend on the processing

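Of the 97 values recomputed under another setting, 1 turned direction: the Myc window exceeded the whole file by region number (1.28 times) and fell below it by covered bases (0.904 times). By covered bases the Ccnd3 window came to 8.25 times the whole file and 9.12 times the Myc window. With regions of at least 1000 bases, the Myc window kept 27 and the Mycn window 1. Joining regions under 2.5 kb apart left 6 in the Ccnd3 window, and a joining gap of 25 kb made it 1 domain. With regions of at least 1000 bases the covered shares were 3.25% (Myc), 3.21% (Mycn), 12.02% (Ccnd2) and 34.6% (Ccnd3). In windows widened by 100 kb on each side they were 3.58%, 2.01%, 10.2% and 26.4%. Without the longest region, an alternative added after seeing the data, as were those on the division and shifted parts of the Myc window, they were 3.57%, 0.497%, 8.74% and 16.9%. Among stretches with at least 1 region, 37.1%, 84.7%, 36.7% and 25.7% held as many regions, and by covered bases 42.4%, 32.0%, 11.3% and 0.713% of all stretches reached the window. Gaps of up to 1 kb numbered 5 in the Myc window and 0 in the Ccnd2 window, and gaps of up to 5 kb numbered 2 in the latter. Dividing the Myc window at unmarked stretches over 50 or 150 kb gave 8 or 4 groups in place of 6, and shifting its 200-kb parts by 100 kb raised the share of regions in the fullest from 27.1% to 35.4%. The order of the 4 windows by covered share, Ccnd3 first and Ccnd2 second, held under each length and window setting. No paired analysis was possible because each group has 1 library. Scores are constant, so no stricter signal threshold could be run, and genes were not placed because no mm9 annotation was used.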

Other observations

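The distance from the first or last region of a window to the nearest H3K4me1 region outside it differed widely among the 4 windows. These distances include the unmarked bases between that region and the window's edge, such as 115.1 kb before the first Myc region and 42.3 kb before the first Ccnd3 region. Before the first region of the Myc window lay 441.4 kb without any region, and after its last region 194.6 kb; 3 unmarked stretches inside the window, of 297.0, 211.8 and 198.2 kb, were longer than the latter. The broad Mycn region was followed by 304.2 kb without a region, past the window's edge to 13254425, and 72.9 kb lay unmarked before the first Mycn region. At Ccnd2 the nearest region below lay 138.2 kb away, and the nearest above only 1.38 kb. The Ccnd3 window was the only one with regions at under 100 kb on both sides, 44.9 and 55.3 kb. Assembly gaps and unmappable sequence in these stretches were not analysed here.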
